A study of Mus musculus with 6 samples.

Results

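The genes described here encode the nuclear part of the mitochondrial respiratory chain, measured by RNA sequencing in blood neutrophils of tumour-bearing mice. Members were the protein-coding genes whose symbols start with Ndufa, Ndufb, Ndufc, Ndufs, Ndufv, Uqcr, Cox4 to Cox8 or Atp5, together with Sdha, Sdhb, Sdhc, Sdhd, Cyc1 and Cycs. This rule took 96 of the 35853 genes in the table. They were 36 genes of complex I, 4 of complex II, 9 of complex III, 19 of complex IV, 17 of complex V, the mobile carrier Cycs and 10 accessory genes, which are the assembly factors Ndufaf1 to Ndufaf8, Ndufa4l2 and Atp5s. Ndufa4 was counted with complex IV, where its protein sits, and Cyc1, the cytochrome c1 gene, with complex III.

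Both groups were Ly6G+ neutrophils, and Ly6G is a surface protein of mouse neutrophils. They came from the blood of WT BALB/C mice with orthotopic tumours of 4T1, a mammary carcinoma line of the mouse, and blood was taken 4 weeks after implantation. The cells were sorted by their surface Ly6C into Ly6C-high and Ly6C-low groups of 3 libraries each. All 6 libraries therefore share the strain, the tumour and the time, and no tumour-free mice were analysed here. Separate animals are not named for the libraries of a group, and neither age nor sex is given, so p-values measure only how far these libraries spread, in part perhaps technically.

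The respiratory chain sits in the inner mitochondrial membrane. Complexes I and II pass electrons from NADH and succinate to ubiquinone, complex III passes them to cytochrome c, and complex IV passes them to oxygen. Complexes I, III and IV pump protons, and complex V, the ATP synthase, makes ATP from the proton gradient. Most subunits are encoded in the nucleus and imported, while a small core of complexes I, III, IV and V is encoded by mitochondrial DNA. Mature neutrophils hold few mitochondria and make most of their ATP by glycolysis.

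The estimated counts summed to between 17192372 and 20973623 per library, and 11406 genes passed the filter on low counts. Of these, 4 genes (0.0351%) passed a Benjamini-Hochberg adjusted p of 0.05 in edgeR's quasi-likelihood test. Ly6C-low replicate 3 stood apart on the first principal component, at 38.02 where the other libraries lay between -19.65 and 3.91. Of a list of 11 neutrophil markers, 9 were abundant in every library, among them S100a8, S100a9, Retnlg and Cxcr2, while Mpo and Elane, genes of early granulocyte stages, were near 0 (at most 1.44 TPM). The list, most of it S100a8 and S100a9, summed to 370759 to 375093 TPM in the Ly6C-high and to 340239 to 358293 TPM in the Ly6C-low libraries. The summed markers of 3 other kinds did not overlap between the groups, and were higher in the Ly6C-low libraries. Eosinophil markers summed to 19.2 to 24.0 against 39.4 to 44.1 TPM, monocyte and macrophage markers to 356 to 381 against 417 to 432 TPM, and proliferation markers to 18.6 to 23.2 against 23.3 to 34.7 TPM. Of the 10 eosinophil markers, 5 of 6 tested had a log2 fold change below 0, and Epx and Prg3 were at or near 0 TPM in every library. Of the 8 monocyte markers 3 of 5 tested lay below 0, with Mrc1 near 0, and of the 10 proliferation markers 8 of 10. The monocyte sum was mostly Fcgr4 and Csf1r, while Ccr2 did not overlap in the other direction, at 3.88, 4.15 and 3.42 TPM in the Ly6C-high against 3.15, 2.87 and 1.65 TPM in the Ly6C-low libraries, and neither did Cx3cr1, at most 0.44 TPM in any library. Of the 8 basophil and mast cell markers 6 of 7 tested lay below 0, with a median log2 fold change of -1.73. Prss34 measured 0.436, 1.12 and 0.828 TPM in the Ly6C-high against 1.47, 2.39 and 3.94 TPM in the Ly6C-low libraries. Mcpt8, the highest of these genes after Hdc, did not overlap either and reached 15.2 TPM in Ly6C-low replicate 3. The sum of the list overlapped (666 to 879.6 against 556 to 735 TPM), and Hdc made up nearly all of it. Erythroid markers, 5 of 5 below 0, summed to 685 TPM in Ly6C-high replicate 3 and to 1729 to 2505 TPM in the other libraries. The part of these markers in the differences given below was not tested. In sorted bulk samples, fewer cells of a type and less RNA per cell cannot be told apart.

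Of the 85 subunit genes of complexes I to V, 77 passed the filter on low counts, and their level differed by complex. A level is given as TPM (transcript abundance scaled by length and library), which can be compared between genes. The median tested subunit measured 139.6 TPM in complex IV, 94.4 TPM in complex V, 64.6 TPM in complex II, 42.5 TPM in complex III and 33.6 TPM in complex I, as means over the 6 libraries. The median per library ran from 126 to 153 TPM for complex IV, from 87.7 to 104 for complex V, from 59.7 to 68.6 for complex II, from 37.5 to 48.5 for complex III and from 29.4 to 34.5 for complex I. These ranges did not overlap between neighbouring complexes, and the order was the same in each library. Within a complex the levels were far apart, from the least to the most abundant tested subunit by 35-fold in complex I, 2.94-fold in complex II, 16.5-fold in complex III, 9.45-fold in complex IV and 234-fold in complex V. The value of complex V rests on Atp5g2 at 1.40 TPM. That level depends on how reads were divided with Gm10175, a related locus described below, which was at 20.4 TPM.

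**Figure D1:**
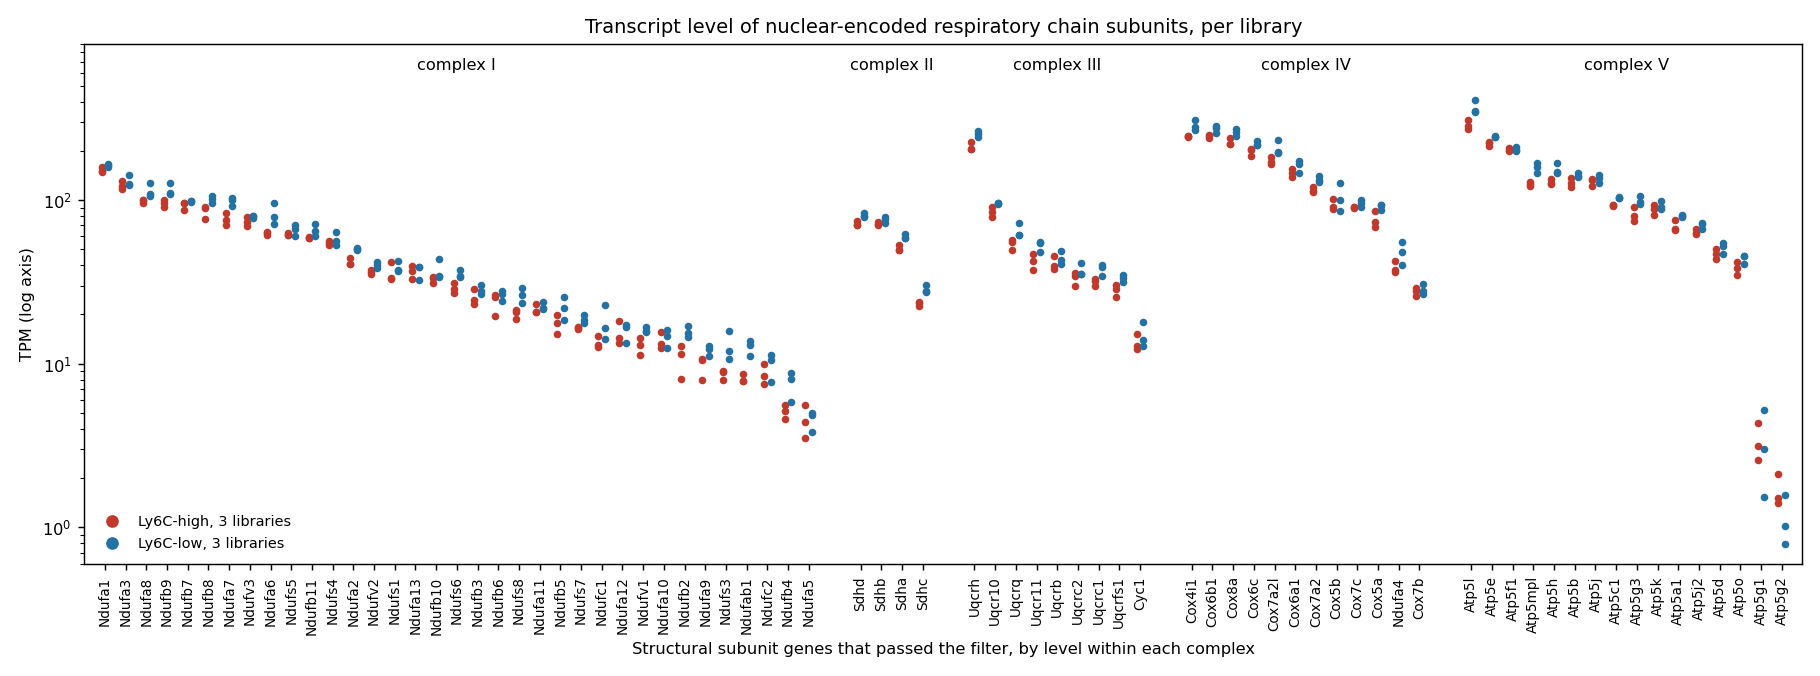
Level of each tested structural subunit in each of the 6 libraries, in TPM on a log axis, ordered by mean level within each complex, with Ly6C-high libraries in red and Ly6C-low libraries in blue; 1 complex I gene is not drawn. Complex I runs down from Ndufa1 at 158 TPM to Ndufa5 at 4.52 TPM, and Atp5g1 and Atp5g2 stand apart at the bottom of complex V. The levels of Atp5g1 and Atp5g2 depend on how reads were divided with related loci described below.

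Between the groups, 0 of the 82 members tested passed an adjusted p of 0.05 in edgeR's quasi-likelihood test, where 0.0351% of all genes did. The smallest adjusted p was 0.222, for Ndufs3. The differences were small and mostly of 1 sign: 65 members had a log2 fold change (Ly6C-high over Ly6C-low) below 0 and 17 above 0, with a median of -0.09 beside a median over all genes that rounds to 0 (5799 of 11406 below 0). At an unadjusted p under 0.05, 6 members were lower (7.32%, beside 7.34% of all genes), a share near the background. Higher at that threshold were 0 members, beside 6.92% of all genes. The 3 Ly6C-high libraries all lay below the 3 Ly6C-low libraries for 17 members (20.7%, beside 10.9% of all genes, and for 25, or 30.5%, without Ly6C-low replicate 3, beside 16% of all genes under that setting) and all above them for 2, Ndufaf7 and Atp5f1 (beside 10.3% of all genes). The 95% confidence interval stayed inside 1.5-fold, up or down, for 73 of the 82 members (89.0%, beside 53.3% of all genes) and within 2-fold for 80. The members were also measured more precisely, with a median standard error of 0.106 beside 0.154 for all genes. The other 14 members had too few counts for the test and are named with their complexes below. Without Ly6C-high replicate 2 only 2 members (2.44%, beside 4.60% of all genes) were lower at an unadjusted p under 0.05, and without any other 1 library it was 4 to 7.

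The median lay below 0 in each complex. The median log2 fold change was -0.10 in complex I (28 of 36 genes below 0), -0.05 in complex II (3 of 4), -0.14 in complex III (8 of 9), -0.12 in complex IV (12 of 12) and -0.04 in complex V (12 of 16). Without Ly6C-high replicate 3 the median over all 82 members was -0.05, and with the trend of each library with gene length removed it was -0.02, with 48 members below 0. Scaling by library size alone, which moved the median of all genes to -0.11, put 80 members below 0.

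**Figure D2:**
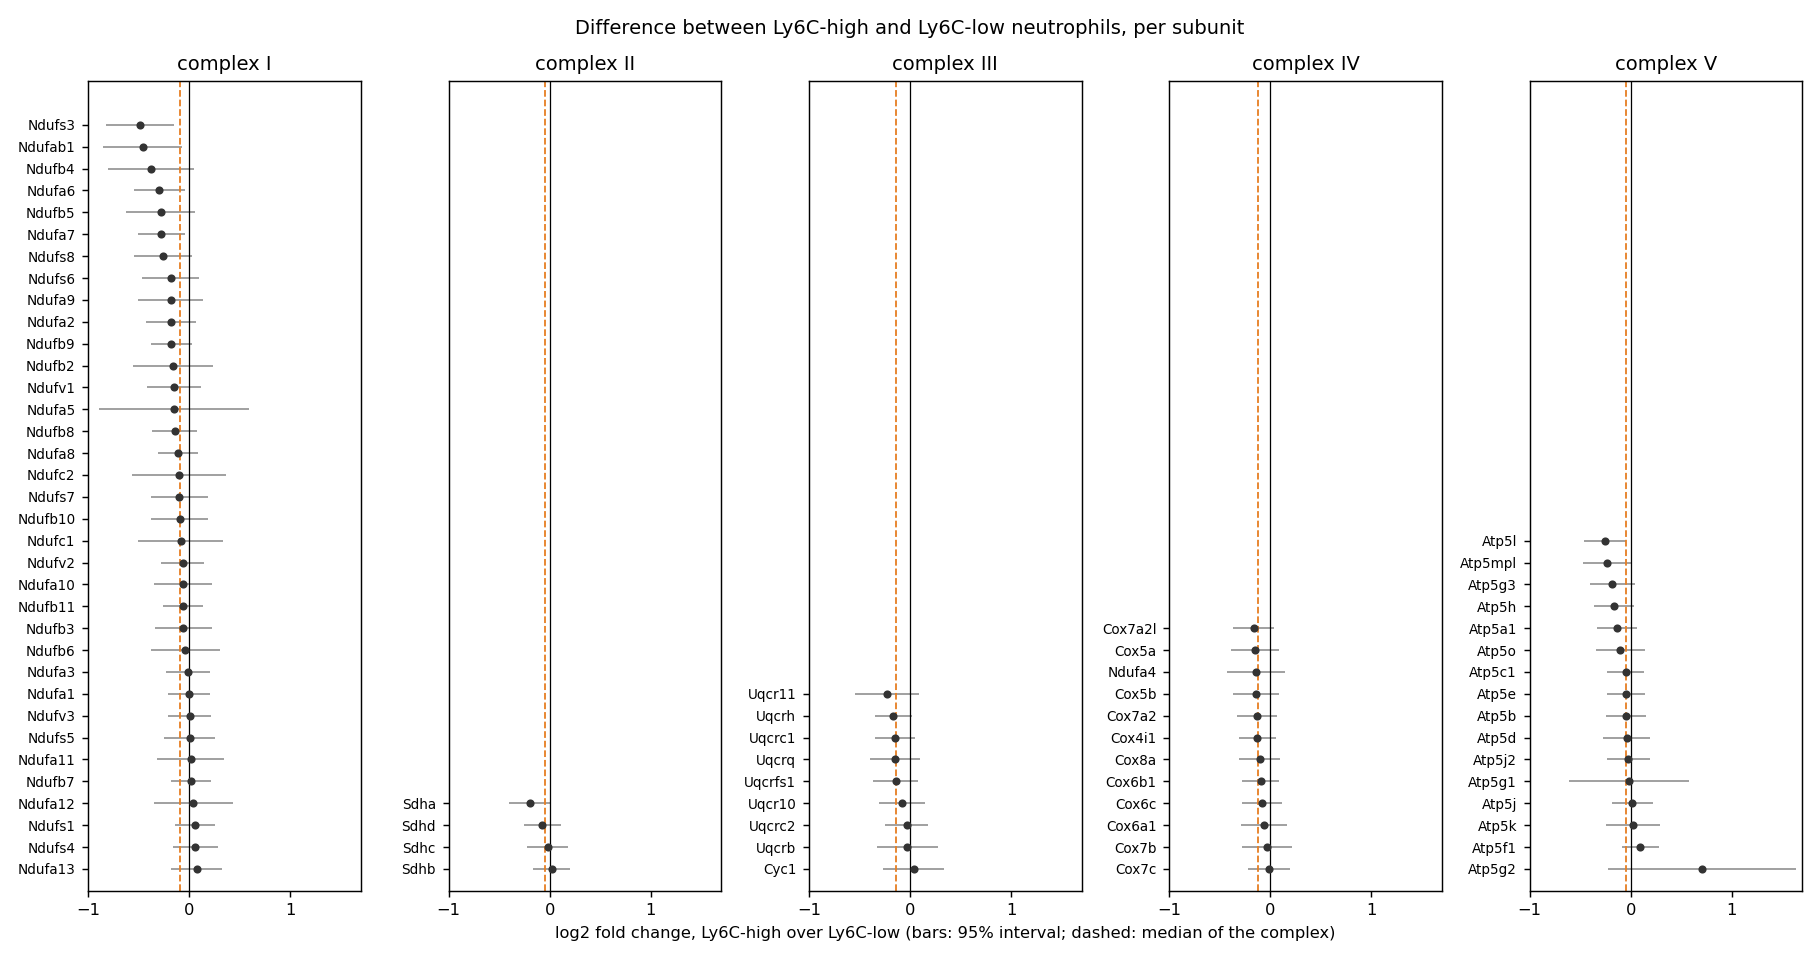
Log2 fold change of each tested subunit, Ly6C-high over Ly6C-low, with its 95% confidence interval, by complex; 1 complex I gene is not drawn. The dashed line marks the median of all tested genes of the complex, between -0.14 (complex III) and -0.04 (complex V), and most points lie slightly left of 0.

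Complex I takes electrons from NADH. Its 7 nuclear core subunits, which carry the flavin and the iron-sulfur clusters or line the ubiquinone site, had a median log2 fold change of -0.10, with 6 below 0. The 29 supernumerary subunits, which surround the core, had a median of -0.09, with 22 below 0. Ndufs3, a core subunit on chromosome 2, measured 6.66, 6.56 and 6.02 CPM in Ly6C-high replicates 1, 2 and 3 against 8.88, 7.91 and 10.2 CPM in the Ly6C-low replicates, where CPM is the count scaled to the library's size by TMM. All 3 Ly6C-high libraries lay below all 3 Ly6C-low libraries, and Ly6C-low replicate 3 was the highest. The means were 6.41 ± 0.344 against 8.99 ± 1.14 CPM (SD, n = 3 each), a log2 fold change of -0.49 (standard error 0.15, edgeR adjusted p 0.222). Its 95% interval was -0.82 to -0.15, and the adjusted p ran from 0.137 to 0.568 over the alternatives described in the closing section.

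The sequence before the start of Ndufs3 is shown because this gene had the smallest p of all members, and that of Atp5l because it was the most abundant member. They are RefSeq promoter windows on GRCm38.p6, from 250 bases before to 50 bases after the annotated start, both on the minus strand, at chr2:90904672-90904971 and chr9:44920693-44920992. Capitals mark matches, on either strand, to CCGGAAG, a core motif of the ETS family to which NRF2 belongs, or to GCGCATGCG, a motif of NRF1. Both factors are known regulators of respiratory chain genes.
Ndufs3: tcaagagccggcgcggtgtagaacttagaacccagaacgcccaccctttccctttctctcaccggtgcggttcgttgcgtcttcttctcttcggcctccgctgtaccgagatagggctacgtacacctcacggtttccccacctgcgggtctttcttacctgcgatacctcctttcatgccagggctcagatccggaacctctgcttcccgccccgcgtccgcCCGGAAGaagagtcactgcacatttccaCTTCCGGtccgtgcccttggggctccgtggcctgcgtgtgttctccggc
Atp5l: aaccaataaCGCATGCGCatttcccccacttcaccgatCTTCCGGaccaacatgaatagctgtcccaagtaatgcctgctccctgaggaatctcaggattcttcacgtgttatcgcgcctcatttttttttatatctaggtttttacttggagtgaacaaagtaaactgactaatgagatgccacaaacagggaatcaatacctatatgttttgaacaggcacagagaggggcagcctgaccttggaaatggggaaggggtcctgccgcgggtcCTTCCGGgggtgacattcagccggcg
The Ndufs3 window held 2 ETS matches and the Atp5l window 1 NRF1 and 2 ETS matches. Of the 96 members 76 had such a window. The NRF1 motif stood in 11 of them (14.5%, beside 2.41% of the 17491 windows of protein-coding genes) and the ETS motif in 17 (22.4%, beside 11.9%). The motif ATGGCGG of YY1 stood in 11 (14.5%, beside 5.41%), 8 of them in complex I. At least 1 of the 3 motifs stood in 34 windows (44.7%, beside 17.9%). The search covered both strands, a palindromic match was read on both, and a match is only a run of letters. Both gene records named Atp5o have the same window, which held no match and was counted for each of them.

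Ndufab1, on chromosome 7, encodes the mitochondrial acyl carrier protein, which is also a subunit of complex I. It measured 3.7, 3.41 and 3.72 CPM in Ly6C-high replicates 1, 2 and 3 against 4.54, 5.5 and 4.88 CPM in the Ly6C-low replicates. Its groups did not overlap, with a log2 fold change of -0.46 (standard error 0.18, edgeR adjusted p 0.291). Loci that share sequence with Ndufab1 held 17.3 counts per library on average, beside 83.1 for the gene. How the division of reads moved its value was not tested. Ndufa7, a supernumerary subunit gene on chromosome 17, measured 19.4, 20.8 and 22.6 CPM in Ly6C-high replicates 1, 2 and 3 against 26.2, 23.6 and 26.4 CPM in the Ly6C-low replicates. These groups did not overlap either, and the log2 fold change was -0.28 (standard error 0.11, edgeR adjusted p 0.286). The fourth complex I gene at an unadjusted p under 0.05 was Ndufa6, whose protein docks the acyl carrier protein Ndufab1 onto the complex, at -0.29 (standard error 0.11). Ly6C-high libraries lay below all Ly6C-low libraries for 9 of the 36 complex I genes (25%, beside 10.9% of all genes). They were these 4 and Ndufb9, Ndufb8, Ndufa2, Ndufs6 and Ndufs8, whose log2 fold changes ran from -0.26 (Ndufs8) to -0.15 (Ndufb8). The other complex I genes overlapped between the groups, with log2 fold changes from -0.38 (Ndufb4) to 0.07 (Ndufa13).

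The other core subunits had values nearer to 0. Ndufs1, the largest, which carries several iron-sulfur clusters, had a log2 fold change of 0.06 (95% interval -0.14 to 0.25). Ndufv1, which binds NADH and the flavin, had -0.15 (-0.42 to 0.12), and its partner Ndufv2 -0.07 (-0.27 to 0.14). Ndufs7, which carries the last iron-sulfur cluster before ubiquinone, had -0.10 (-0.38 to 0.19). Core subunits included both the largest difference of complex I and values close to 0.

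The most abundant complex I transcript was Ndufa1, on the X chromosome, at 160.0, 151 and 148 TPM in the Ly6C-high and 164, 166 and 159.7 TPM in the Ly6C-low libraries. Its groups overlapped, and the 95% interval of its log2 fold change was -0.21 to 0.21. The least abundant was Ndufa5, on chromosome 6, at 5.56, 4.38 and 3.5 TPM in the Ly6C-high and 3.82, 4.85 and 5.03 TPM in the Ly6C-low libraries. Its groups overlapped as well, and its interval was wide, -0.89 to 0.60, with 22.2 counts per library on average. The name families did not separate by level: Ndufa3 at 127, Ndufa8 at 107 and Ndufb9 at 106 TPM were near the top, and Ndufc2 at 9.23, Ndufa9 at 10.9 and Ndufb2 at 13.2 TPM near the bottom.

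Complex II, succinate dehydrogenase, is also an enzyme of the citric acid cycle and has no mitochondrially encoded subunit. Sdha, its flavoprotein, measured 124, 113 and 106 CPM in Ly6C-high replicates 1, 2 and 3 against 135, 134 and 124 CPM in the Ly6C-low replicates. The highest Ly6C-high library, replicate 1 at 124.2, lay just below the lowest Ly6C-low library, replicate 3 at 124.4, with a log2 fold change of -0.20 (standard error 0.09, edgeR adjusted p 0.353). Sdhb, the iron-sulfur subunit that binds Sdha, measured 63.7, 64.6 and 61.5 CPM in Ly6C-high replicates 1, 2 and 3 against 64.7, 59.6 and 63.1 CPM in the Ly6C-low replicates, and its groups overlapped. Its log2 fold change was 0.02, with a 95% interval of -0.17 to 0.20. The membrane anchors also overlapped between the groups. Sdhd measured 73.3, 68.3 and 67.1 CPM in Ly6C-high replicates 1, 2 and 3 against 73.1, 75.5 and 70.5 CPM in the Ly6C-low replicates, a log2 fold change of -0.07 (-0.26 to 0.12). Sdhc measured 28.5, 29.9 and 28.8 CPM in Ly6C-high replicates 1, 2 and 3 against 28.9, 30.4 and 29.2 CPM in the Ly6C-low replicates, a log2 fold change of -0.02 (-0.22 to 0.18). By level the order was Sdhd at 76.2, Sdhb at 73.8, Sdha at 55.3 and Sdhc at 25.9 TPM, and the ranges of Sdhd and Sdhb over the 6 libraries overlapped.

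Complex III, the cytochrome bc1 complex, held 9 members. Of these, 3 did not overlap between the groups, with the Ly6C-high libraries lower (33.3%, beside 10.9% of all genes). Uqcrh, the hinge protein that contacts cytochrome c1, was its most abundant transcript and measured 63.3, 63.03 and 67.1 CPM in Ly6C-high replicates 1, 2 and 3 against 73.2, 69.8 and 73.9 CPM in the Ly6C-low replicates. The Ly6C-high libraries were all lower, with a log2 fold change of -0.17 (standard error 0.08, edgeR adjusted p 0.399). Uqcrc1, a core protein of the matrix side, measured 39.9, 39.2 and 40.8 CPM in Ly6C-high replicates 1, 2 and 3 against 47.8, 42.9 and 42.5 CPM in the Ly6C-low replicates, again without overlap, at a log2 fold change of -0.15 (edgeR adjusted p 0.476). Uqcrq, a small ubiquinone-binding subunit, was the third, at -0.15. Uqcr11, another small subunit, measured 10.1, 9.01 and 7.83 CPM in Ly6C-high replicates 1, 2 and 3 against 11.3, 9.64 and 10.7 CPM in the Ly6C-low replicates, and its groups overlapped at a log2 fold change of -0.23 (standard error 0.14). The 2 subunits that pass electrons to cytochrome c were at -0.14 (Uqcrfs1, the Rieske iron-sulfur protein) and 0.04 (Cyc1). Cyc1 was the least abundant, at 12.8, 15.2 and 12.2 TPM in the Ly6C-high and 12.8, 14.1 and 17.9 TPM in the Ly6C-low libraries, and Ly6C-low replicate 3 was its highest library. The other members, Uqcr10, Uqcrb and Uqcrc2, were at -0.08, -0.03 and -0.03.

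Cycs, which encodes the cytochrome c that carries electrons from complex III to complex IV and also acts in apoptosis, measured 7.83, 7.2 and 7.15 CPM in Ly6C-high replicates 1, 2 and 3 against 6.19, 8.33 and 9.81 CPM in the Ly6C-low replicates. Its groups overlapped, with Ly6C-low replicate 1 the lowest and Ly6C-low replicate 3 the highest. The log2 fold change was -0.13 with a 95% interval of -0.52 to 0.26. At 3.0 TPM Cycs was below every tested subunit except Atp5g2. This level depends on how reads were divided with Gm10053, a related locus described below, which was at 15.3 TPM.

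Complex IV, cytochrome c oxidase, has a catalytic core made in the mitochondrion, and its nuclear subunits surround and regulate that core. All 12 tested members had a log2 fold change below 0, from -0.17 (Cox7a2l) to -0.01 (Cox7c). Only 1 did not overlap between the groups, with the Ly6C-high libraries lower (8.33%, a share near the 10.9% of all genes). That was Cox4i1, the main regulatory subunit and the most abundant transcript of the complex, at 122, 119 and 117 CPM in Ly6C-high replicates 1, 2 and 3 against 126, 128 and 138 CPM in the Ly6C-low replicates. Its log2 fold change was -0.13 (standard error 0.08, edgeR adjusted p 0.515). Cox7a2l, known for a role in joining complexes III and IV into supercomplexes, measured 152, 135 and 138 CPM in Ly6C-high replicates 1, 2 and 3 against 154, 148 and 173 CPM in the Ly6C-low replicates. Cox7a2, its paralogue in the enzyme, measured 45.7, 41.1 and 41.6 CPM in Ly6C-high replicates 1, 2 and 3 against 47.6, 44.4 and 48.7 CPM in the Ly6C-low replicates. Both overlapped between the groups, at -0.17 and -0.13, with standard errors of 0.09 and 0.09. The least abundant tested subunit was Cox7b, at 28.00, 26.1 and 28.9 TPM in the Ly6C-high and 27.9, 26.7 and 30.7 TPM in the Ly6C-low libraries, with a 95% interval of -0.28 to 0.21.

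Several complex IV subunits have tissue-specific copies, and neutrophils carried the widely expressed ones. Cox4i2, a form known from lung and from low oxygen, was at 0.225 TPM on 12 counts in all, beside 265 TPM for Cox4i1. Cox6a2, the heart and muscle form, was at 0 counts in all 6 libraries, beside 155 TPM for Cox6a1. The testis form Cox6b2 was at 1.36 TPM on 35 counts, beside 259 TPM for Cox6b1. The muscle form Cox7a1 was at 0.897 TPM on 19 counts, with 5, 4 and 6 counts in the Ly6C-high and 3, 0 and 1 in the Ly6C-low libraries, beside 125 TPM for Cox7a2. The Ly6C-high libraries had the higher counts of Cox7a1, which were too few for the test. Cox8b had 1 count in all and Cox8c had 0, beside 244 TPM for Cox8a, and Cox7b2 was also at 0, beside Cox7b. Ndufa4, now placed in complex IV, was at 43.3 TPM, and its low-oxygen paralogue Ndufa4l2 at 0.

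Complex V, the ATP synthase, held the member with the highest level and 2 of the 6 with an unadjusted p under 0.05 (12.5% of its tested genes, beside 7.34% of all genes). Both are small subunits of the membrane part. Atp5l, subunit g, on chromosome 9, measured 90.01, 84.3 and 98.2 CPM in Ly6C-high replicates 1, 2 and 3 against 103, 104 and 118 CPM in the Ly6C-low replicates. The Ly6C-high libraries were all lower, and the means were 90.8 ± 7.02 against 108 ± 8.12 CPM (SD, n = 3 each), a log2 fold change of -0.25 (standard error 0.10, edgeR adjusted p 0.285). Atp5mpl, the 6.8 kDa proteolipid on chromosome 12, measured 18.99, 18.2 and 18.4 CPM in Ly6C-high replicates 1, 2 and 3 against 23.8, 20.1 and 21.6 CPM in the Ly6C-low replicates. It also did not overlap between the groups, at a log2 fold change of -0.24 (standard error 0.11, edgeR adjusted p 0.349). Atp5h, subunit d of the peripheral stalk, measured 51.6, 47.8 and 46.6 CPM in Ly6C-high replicates 1, 2 and 3 against 52.6, 52.5 and 58.4 CPM in the Ly6C-low replicates, without overlap, at -0.16.

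The catalytic head showed smaller values. Its 5 subunit genes Atp5a1, Atp5b, Atp5c1, Atp5d and Atp5e all overlapped between the groups and had log2 fold changes from -0.13 (Atp5a1) to -0.04 (Atp5b, Atp5d and Atp5e), with a median of -0.04. Atp5f1, subunit b of the peripheral stalk, was the structural subunit with all Ly6C-high libraries on the higher side, at 239.8, 228 and 228 CPM in Ly6C-high replicates 1, 2 and 3 against 222, 221 and 209 CPM in the Ly6C-low replicates. Its log2 fold change was 0.09 with a 95% interval of -0.09 to 0.28. Genes of the peripheral stalk thus lay on both sides of 0, with Atp5j at 0.02 and Atp5o at -0.10. Atp5k and Atp5j2, subunits e and f of the membrane part, were at 0.02 and -0.03. A second gene record named Atp5o was at 0 counts in every library.

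Subunit c, which forms the rotating ring, is made from 3 genes whose mature proteins are the same and whose import sequences differ. Atp5g3 carried most of it, at 80.3, 91.4 and 74.8 TPM in the Ly6C-high and 96.9, 95.02 and 106 TPM in the Ly6C-low libraries. Atp5g1 was at 3.14, 4.35 and 2.59 TPM in the Ly6C-high and 1.54, 3.01 and 5.21 TPM in the Ly6C-low libraries. Its level depends on how reads were divided with Gm10039, a locus that shares sequence with it. Gm10039 was at 5.9 TPM and held 20.6 to 39.6% of the counts of the pair. Atp5g2 was at 1.41, 2.11 and 1.5 TPM in the Ly6C-high and 0.791, 1.02 and 1.59 TPM in the Ly6C-low libraries. Their log2 fold changes were -0.18 (95% interval -0.40 to 0.04), -0.01 (-0.61 to 0.58) and 0.71 (-0.22 to 1.63), and on CPM, the scale of the test, each overlapped between the groups. On TPM the Ly6C-high libraries of Atp5g3 all lay below the Ly6C-low libraries. The value of Atp5g2 was the only positive one above 0.26 among the 82 members, and it rests on 6.99 to 18.6 estimated counts per library and on a related locus described below.

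Of the assembly factors, which build complex I and are not part of it, Ndufaf7, Ndufaf3, Ndufaf1 and Ndufaf8 passed the filter, at 3.59 to 5.72 TPM. Ndufaf7, an arginine methyltransferase, measured 7.93, 7.63 and 8.13 CPM in Ly6C-high replicates 1, 2 and 3 against 7.24, 7.33 and 5.25 CPM in the Ly6C-low replicates. Its Ly6C-high libraries were all higher, at a log2 fold change of 0.26 (standard error 0.17, edgeR adjusted p 0.514). The value was 0.12 without Ly6C-low replicate 3, its lowest library. Ndufaf3 and Ndufaf1 were at 0.04 and 0.04, and Ndufaf8 at -0.37 (standard error 0.39). Leaving out 1 library turned the sign of Ndufaf3 (-0.11 to 0.11) and Ndufaf1 (-0.03 to 0.17), and moved Ndufaf8 from -0.01 without Ly6C-high replicate 2 to -0.71 without Ly6C-high replicate 3. Ndufaf2, Ndufaf4, Ndufaf5 and Ndufaf6 were under the filter, with at most 13.9 estimated counts in any library, as was Atp5s, an accessory factor of the synthase, with at most 15.

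The levels summed over each complex were also lower in the Ly6C-high libraries, by a similar factor in each. Complex I summed to 1563, 1527 and 1481 TPM in the Ly6C-high and 1721, 1682 and 1796 TPM in the Ly6C-low libraries. Complex II summed to 223, 218 and 213 TPM in the Ly6C-high and 242, 245 and 247 TPM in the Ly6C-low libraries. Complex III summed to 544, 540.0 and 539 TPM in the Ly6C-high and 629, 620.4 and 654 TPM in the Ly6C-low libraries. In these complexes every Ly6C-high library was below every Ly6C-low library. Complex IV summed to 1714, 1684 and 1644 TPM in the Ly6C-high and 1868, 1884 and 1981 TPM in the Ly6C-low libraries. Complex V summed to 1732, 1687 and 1722 TPM in the Ly6C-high and 1926, 1916 and 2012 TPM in the Ly6C-low libraries. The groups did not overlap here either, and Ly6C-low replicate 3 had the highest sum in all 5 complexes. The means were 1524 ± 41.3 against 1733 ± 57.9 TPM for complex I, 218 ± 5.09 against 245 ± 2.50 for complex II, 541 ± 3.00 against 634 ± 17.5 for complex III, 1681 ± 35.1 against 1911 ± 61.4 for complex IV and 1714 ± 23.9 against 1951 ± 53.0 for complex V (SD, n = 3 each). The ratios were 0.879, 0.890, 0.853, 0.880 and 0.878, and between 0.866 and 0.896 without Ly6C-low replicate 3.

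Part of the lower TPM was shared with other genes. Over all tested genes the median ratio of TPM was 0.931, and relative to it the ratios of the 5 complexes were 0.944, 0.955, 0.916, 0.945 and 0.943. On TPM the groups did not overlap, with the Ly6C-high libraries lower, for 44 of 82 members (53.7%) and for 18.1% of all genes, more than the 17 members and 10.9% found on TMM-scaled CPM.

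The balance between complexes was nearly the same in both groups. Of the summed TPM of complexes I to V, complex I held 26.8 ± 0.338% in the Ly6C-high and 26.8 ± 0.228% in the Ly6C-low libraries, complex II 3.84 ± 0.0349 and 3.78 ± 0.0788%, complex IV 29.6 ± 0.209 and 29.5 ± 0.229%, and complex V 30.2 ± 0.504 and 30.1 ± 0.0587% (SD, n = 3 each). For these 4 complexes the groups overlapped. Complex III was the exception, at 9.42, 9.55 and 9.62% in the Ly6C-high and 9.85, 9.78 and 9.78% in the Ly6C-low libraries, a gap of less than 1 percentage point.

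**Figure D3:**
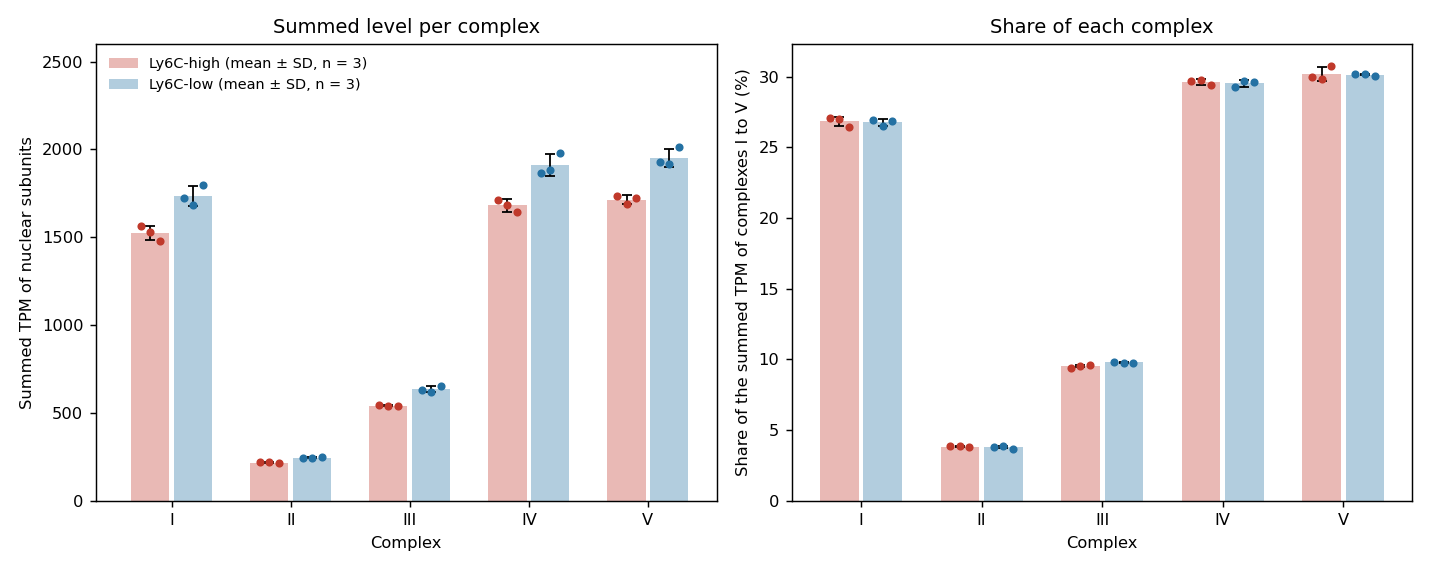
Left, TPM summed over the nuclear subunits of each complex, and right, each complex's share of the sum over complexes I to V in percent, with bars for the mean, error bars for the SD and points for the 3 libraries of each group. The sums are lower in Ly6C-high libraries by ratios of 0.853 to 0.890, while the shares are nearly equal.

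The members were uneven over the libraries. Ly6C-high replicate 3 held the lowest CPM for 41 of the 82 members (50.0%, beside 17.7% of all genes), and 23 of these were in complex I. It is also the library with the lowest erythroid markers, whose part in this was not tested. Ly6C-low replicate 3 held the highest for 30 (36.6%, beside 25.9%), and Ly6C-low replicate 1 for 25 (30.5%, beside 16.4%). The median deviation of the members from their own mean was -0.11 on the log2 scale in Ly6C-high replicate 3, but 0.06 in replicate 3 of Ly6C-low, where the other 4 libraries gave -0.03 to 0.05.

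Respiratory chain transcripts were short, and short transcripts as a class differed in the same direction. Of the 82 members 56 had transcripts under 1000 bases (68.3%, beside 11.4% of all genes), a limit chosen after the values were seen. The median log2 fold change was -0.10 for these 56 members and -0.05 for the 26 longer ones. For all tested genes it was -0.09 under 1000 bases and rounded to 0 at or above it. The 974 other protein-coding genes under 1000 bases had a median of -0.09, 62.2% of them below 0, and 17.5% of them had all Ly6C-high libraries below all Ly6C-low libraries. With each library's trend with length removed, the medians were -0.03 in complex I, -0.06 in complex III, -0.04 in complex IV and near 0 in complex V, where 8 of 16 genes lay below 0.

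**Figure D4:**
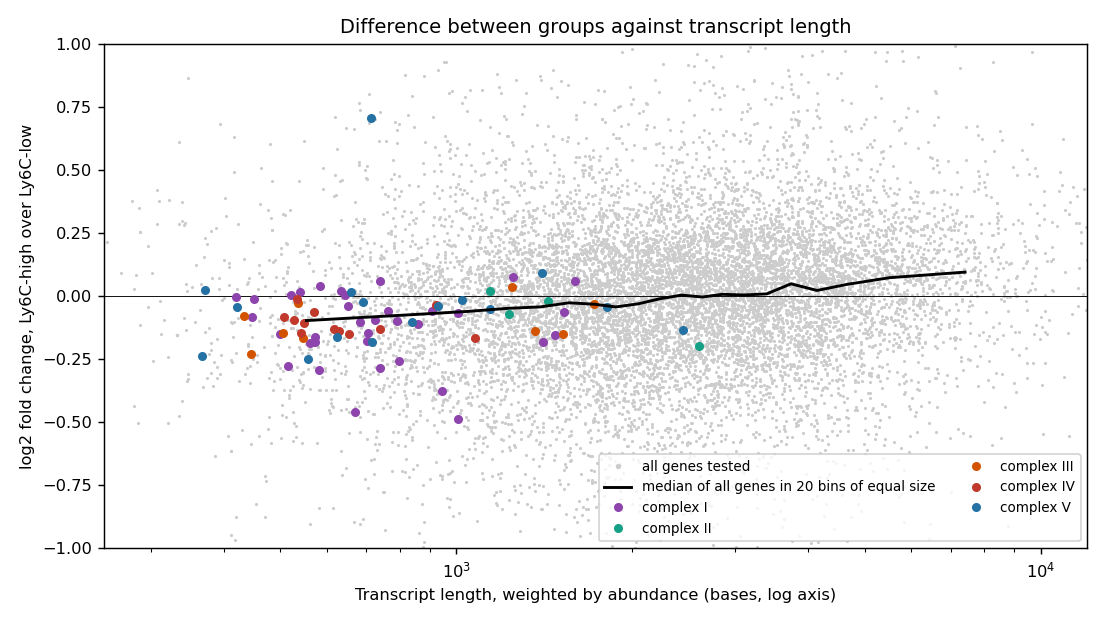
Log2 fold change against transcript length in bases (log axis) for all tested genes in grey and the tested subunits of complexes I to V in colour, with the median of all genes in 20 bins of equal size as a black line; genes beyond a change of 1 in either direction and 1 complex I gene in colour are not drawn. The members lie at the short end, around the line, which is below 0 there.

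The 13 subunits encoded by mitochondrial DNA, which join the nuclear ones in complexes I, III, IV and V, lay on the other side of 0. All 13 lay above 0 in log2 fold change (median 0.24), 3 of them at an unadjusted p under 0.05 (beside 6.92% of all genes) and 0 past the adjusted threshold. Their TPM summed to 9968, 9005 and 8218 TPM in the Ly6C-high and 8957, 8746 and 7084 TPM in the Ly6C-low libraries, and the groups overlapped. Ly6C-low replicate 3 had the lowest sum here, where it had the highest for each nuclear complex. On CPM it was the lowest library for every gene of the 13 except mt-Co2 and mt-Nd3. There mt-Cytb measured 218 CPM, against 399 and 351 CPM in Ly6C-low replicates 1 and 2 and 351 to 407 CPM in the Ly6C-high libraries. How far the median of the 13 rests on this library was not tested. mt-Nd6, a complex I subunit, had a log2 fold change of 0.34 (standard error 0.13), and mt-Co2, the complex IV subunit that receives electrons from cytochrome c, had 0.24 with 0.11 (edgeR adjusted p 0.289 and 0.35). mt-Nd3, the member of this list with the smallest p, measured 1.38, 0.64 and 1.03 CPM in Ly6C-high replicates 1, 2 and 3 against 0.449, 0 and 0.212 CPM in the Ly6C-low replicates, close to the limit of the filter. Its edgeR adjusted p was 0.229, and 0.00995 without the filter, a setting under which 439 genes passed in all, beside 4 with the filter. The libraries were made from RNA captured by its poly(A) tail, and how far the capture of mitochondrial transcripts differed between libraries was not tested.

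Genes that act with the chain were taken from 11 lists, with 144 of their 166 genes in the table tested and 0 past the adjusted threshold in edgeR's test (5 higher and 14 lower at an unadjusted p under 0.05, beside 6.92% and 7.34% of all genes). Assembly factors had medians of 0.04 for complex I (13 genes tested, with 8 of the list's genes also members), -0.07 for complex II, 0.11 for complex III, -0.06 for complex IV and 0.05 for complex V. The 19 tested genes of mitochondrial protein import had a median of -0.27, with 16 below 0 and 4 at an unadjusted p under 0.05. The 18 enzymes of the citric acid cycle had a median of -0.05 with 13 below 0, and the 17 regulators of mitochondrial biogenesis a median of -0.01 with 9 below 0. Carriers and pores had a median of 0.02 over 11 genes, and genes that feed electrons into ubiquinone or make it one near 0 over 16.

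Hspa9 and Coq2 lay further from 0 than any member in edgeR's test. Hspa9, the mitochondrial HSP70 that pulls imported proteins into the matrix, measured 7.62, 6.88 and 5.83 CPM in Ly6C-high replicates 1, 2 and 3 against 10.9, 9.38 and 14.6 CPM in the Ly6C-low replicates. Its groups did not overlap, with a log2 fold change of -0.78, a standard error of 0.18 and an edgeR adjusted p of 0.172. It passed with DESeq2 (adjusted p 0.0320) and in edgeR without the filter on low counts (0.000803). Both settings called more genes in all than the main test, as the closing section gives, with 439 without the filter beside 4. With length-scaled TPM the log2 fold change of Hspa9 was -0.40 (edgeR adjusted p 0.465) and without Ly6C-low replicate 3 it was -0.58. Coq2, an enzyme of ubiquinone synthesis, measured 3.44, 3.63 and 3.38 CPM in Ly6C-high replicates 1, 2 and 3 against 6.39, 4.98 and 7.0 CPM in the Ly6C-low replicates. Its log2 fold change was -0.81 (standard error 0.19, edgeR adjusted p 0.172, and 0.0109 without the filter), again without overlap.

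Among the assembly lists, Atpaf2, a chaperone of the ATP synthase head, had a log2 fold change of -0.61 and Bcs1l, which inserts the Rieske protein into complex III, one of 0.53, with standard errors of 0.19 and 0.17 (edgeR adjusted p 0.22 and 0.235). Both did not overlap between the groups, and they lay in opposite directions. Tfam, which packages and transcribes mitochondrial DNA, was at -0.52, and at -0.27 without Ly6C-low replicate 3. Idh3g, a subunit of isocitrate dehydrogenase, was at -0.32 and Mpc1, of the mitochondrial pyruvate carrier, at -0.16. Dmac2, Surf1 and Sdhaf2, which act in the assembly of complexes I, IV and II, were at -0.43, -0.23 and 0.07.

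Respiratory chain genes have many processed copies in the genome, and reads that fit several places are divided by estimation. Of the 82 tested members 46 shared at least 10% of either locus's words of 31 bases with another locus, but only 7 had related loci with more than 10% of the member's counts, and 3 had related loci with more counts than the member itself. These were Ndufb4, Cycs and Atp5g2. Their partners Ndufb4c, Gm10053 and Gm10175 were named after their values were seen. The first 60 coding bases are shown, since a read within them could come from either locus, with the start codon in capitals, as the GENCODE M21 transcripts give them.
Ndufb4: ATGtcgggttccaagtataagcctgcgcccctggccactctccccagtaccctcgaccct
Ndufb4c: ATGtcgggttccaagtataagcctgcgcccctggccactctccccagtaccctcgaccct
Cycs: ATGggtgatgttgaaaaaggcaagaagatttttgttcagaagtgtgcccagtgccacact
Gm10053: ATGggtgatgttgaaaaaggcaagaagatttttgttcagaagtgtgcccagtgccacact
The pairs were identical over all 387 coding bases of Ndufb4 and all 315 of Cycs, and Atp5g2 and Gm10175 over all 438.

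Ndufb4, a membrane-arm subunit of complex I on chromosome 16, had estimated counts of 76.7, 68.9 and 65.5 in the Ly6C-high and 79.4, 94.7 and 101 in the Ly6C-low libraries. Its processed copy Ndufb4c on chromosome 15 had 129, 114 and 145 in the Ly6C-high and 169, 143 and 158 in the Ly6C-low libraries, which is 60.2 to 68.9% of the pair. The sum does not depend on the division within the pair, although Ndufb4 also shares words with Gm20519 (33.1 counts per library on average), and was 10.3 ± 0.568 CPM for Ly6C-high against 12.9 ± 0.759 CPM for Ly6C-low (SD, n = 3 each). The groups of the sum did not overlap, at a log2 ratio of -0.32, where Ndufb4 alone overlapped at -0.38. Gm10053, on chromosome 19, held 52.4 to 61.4% of the counts it shares with Cycs, and the sum had a log2 ratio of -0.14 with overlapping groups.

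Gm10175, on chromosome 7, held 85.9 to 96.3% of the counts it shares with Atp5g2, whose own counts were 12.7, 18.6 and 13.9 in the Ly6C-high and 6.99, 8.2 and 12.9 in the Ly6C-low libraries. The sum of this pair measured 7.85 ± 0.791 CPM for Ly6C-high against 9.05 ± 0.671 CPM for Ly6C-low (SD, n = 3 each), a log2 ratio of -0.21, opposite in sign to the 0.71 of Atp5g2 alone. The groups of this sum overlapped. How the division of reads moved the value of Atp5g2 alone was not tested. Ndufb1-ps, annotated as non-coding and so outside the rule, carried 61.2 ± 2.32 TPM in the Ly6C-high and 72.6 ± 2.74 TPM in the Ly6C-low libraries, with a log2 fold change of -0.16 on CPM.

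**Figure D5:**
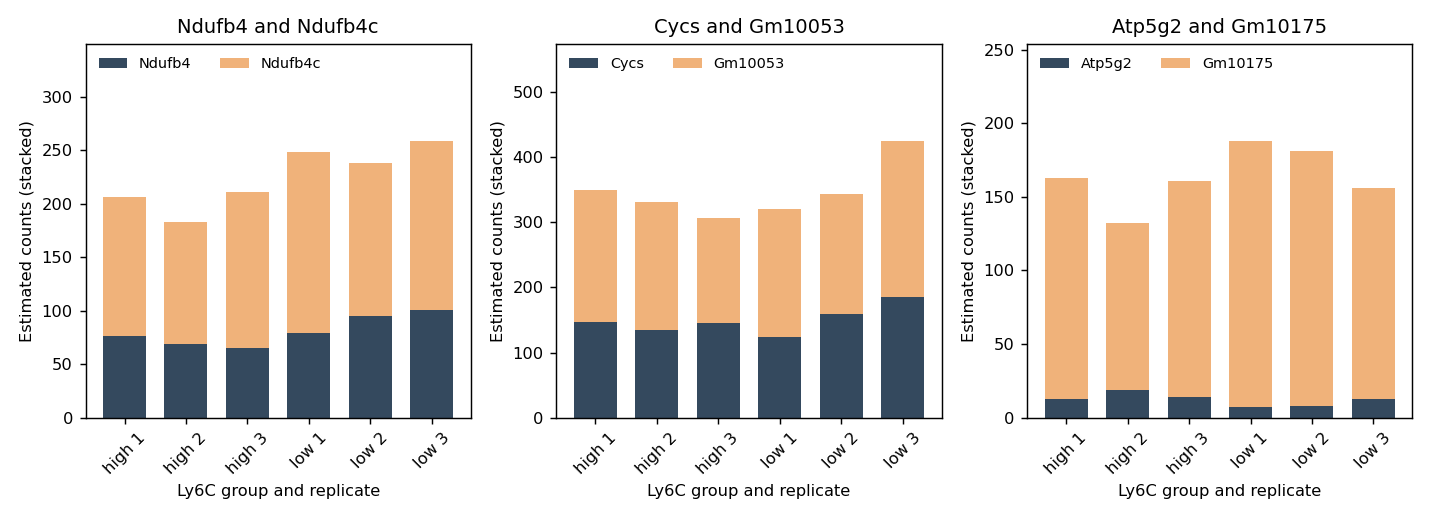
Estimated counts per library, stacked, for 3 members (dark) and the related locus with identical coding bases (light). In each library the related locus holds the larger part, up to 96.3% for Atp5g2, so the member's own count depends on how reads were divided within the pair, and the stacked total does not.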

How the data were processed

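RNA was sequenced as stranded poly(A) libraries from single-end reads, per the labels' protocols. The submitters' processing notes name kallisto and GRCm39. Which version, index and strand setting it used is not given in the sources used here. The deposited tables hold estimated counts and TPM for 117486 transcripts in each of 6 libraries, per the file headers.

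Transcripts were assigned to genes by identifier with GENCODE M21, which is on GRCm38, so coordinates are given only for the RefSeq promoter windows (GRCm38.p6). Of the transcripts 99.036% matched and held 99.747 to 99.767% of the estimated counts. The rest were left out. Estimated counts and TPM were summed per gene, and counts were rounded. The test was edgeR's (version 4.0.16, R 4.3.3) robust quasi-likelihood F test after filterByExpr and TMM, with group as the only term and Benjamini-Hochberg adjustment over the 11406 genes kept and a threshold of 0.05. The common biological coefficient of variation was 13.7%, and no pair of the 6 libraries was within sampling noise (chi-square per gene 14.3 to 69.1). The step was tested on simulated data with the common coefficient of variation for every gene, and without a library that stands apart. Intervals cover the spread between libraries, and no molecular identifiers were used to remove PCR copies.

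Members and lists were chosen with earlier results of these data known. Values per library are given for the 3 members of each complex with the smallest p, the most and least abundant, Cycs and the subunits with paralogous forms, and the member with the smallest p is named from each of 11 other lists. Roles within complexes, Ndufa6, Uqcrq, Atp5f1, Ndufaf7 and further subunits were named after their values were seen. The alternatives were a replicate block, DESeq2 size factors, library size alone, no filter, a mean count of 10, DESeq2 1.42.0, limma 3.58.1 voom, length-scaled TPM, protein-coding nuclear genes alone, trends with length or GC content removed, each library left out, Ndufa4 counted in complex I, sums without the most abundant subunit and TPM rescaled without mitochondrially encoded genes. Counts at an unadjusted p, counts without overlap and sums with each library left out were added after seeing the data. A complex I gene and a marker gene enter the counts and sums but are not reported here by name.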

Additional observations from a re-analysis of the deposited data

How the results depend on the processing

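With 0 members past the adjusted threshold in edgeR's test, the count was 0 under all 17 alternatives, and the smallest adjusted p of any member over them was 0.137 (Ndufs3, no filter on low counts). At an unadjusted p under 0.05, leaving out 1 library gave 2 to 7 members lower and 0 higher (4.60 to 7.08% of all genes lower), beside 6 and 0 (7.34%) with all libraries, and 19 to 31 lower without overlap (14.4 to 17.7% of all genes), beside 17 (10.9%). The number of genes past the threshold, 4 in all, was 61 with the replicate block, 8 with library size alone, 439 without a filter, 110 with the DESeq2 Wald test, 2 with length-scaled TPM and 2 to 22 with 1 library left out (22 without Ly6C-low replicate 3). Library size alone, which moved the median of all genes to -0.11, gave medians of -0.20 for the members and -0.21, -0.15, -0.25, -0.23 and -0.15 for complexes I to V. With the length trend removed they were -0.025 for the members, -0.029, -0.060 and -0.036 for complexes I, III and IV, and -2.57e-05 for complex V. The complex II median was -0.11 with length-scaled TPM. Leaving out 1 library gave -0.12 to -0.05 for the members, -0.13 to -0.05, -0.06 to -0.03, -0.17 to -0.10 and -0.12 to -0.08 for complexes I to IV, and -0.085 (without Ly6C-low replicate 3) to -0.031 for complex V. The summed TPM ratio of complex V was 0.900 without its most abundant subunit, and leaving out 1 library kept the ratios of the complexes between 0.843 and 0.901. The causes of these shifts were not tested.

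The groups share replicate numbers, but no label says that same-numbered libraries come from the same mouse. The correlations of same-numbered libraries were 0.24, -0.04 and 0.24, and those of replicates 1 and 3 were the highest of all pairs. Replicate 2 did not correlate best with its own number, and Ly6C-high replicate 2 reached 0.11 with Ly6C-low replicate 1. Whether the numbers pair the libraries was not settled, and the main test used no pairing. The replicate block called 61 genes, 33 higher and 28 lower, with the 4 among them and 0 members. Counts limit the accessory genes and minor isoforms most, since 14 members were too low to test.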
